A study of Mus musculus with 6 samples.

Results

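Acute phase and neutrophil genes were examined in the gastrocnemius, a calf muscle, of mice with cancer cachexia. They were chosen by name as Lcn2, Serpina3n, S100a8, S100a9, Lrg1, Il1r1 and Hp, and all 7 were found among the 13363 genes of the deposited expression table. The C26 group was 3 male Balb/c mice inoculated subcutaneously in the flank with C26 colon adenocarcinoma cells, a transplanted mouse line whose tumors cause wasting. The control group was 3 male Balb/c mice without tumor, and all mice were bought at 6 weeks of age and the labels name no genetic change. The samples were whole muscles, so RNA of blood, immune, fat and connective tissue cells was measured together with that of muscle fibers, and fewer cells of a type cannot be told apart from less RNA per cell. Of 10 skeletal muscle fiber markers, all 10 were listed, and their summed level lay from 73128 to 105007 FPKM (fragments scaled to transcript length and to the mapped reads of the sample) in the C26 group, below the 138106 to 145861 FPKM of the controls. Control replicate 3 stood apart from the other controls in fat and immune markers, and C26 replicate 3 from the other C26 muscles in some fiber genes. Values of both muscles are given beside several of the results they touch. Nothing in the labels says how the mice of a group were caged or processed, so p-values measure the spread between these samples.

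The acute phase response is the release of defence and transport proteins into blood during inflammation, driven chiefly by IL-6 and IL-1 through the transcription factors STAT3, C/EBP and NF-kB. Liver is its main source, and fat, endothelium and muscle can make part of these proteins. S100A8 and S100A9 are calcium-binding proteins that pair as calprotectin and are stored in large amounts in neutrophils, the first white blood cells to reach inflamed tissue.

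The promoter windows of the 5 genes that were higher in C26 muscles are shown here because these genes changed in the same direction. Windows were taken from RefSeq on GRCm38.p6 for 6 of the 7 genes and reach from 250 bases before to 50 bases after an annotated start. Bases are written 5′ to 3′ on the strand of the gene. Capitals mark matches to 4 motifs, namely TTCNNNGAA for STAT factors, TTGCNNAA for C/EBP factors and, for NF-kB, GGGA and CC with any 4 bases between them, each searched on both strands, and TATAAA on the strand of the gene.
Lcn2 (chr2:32387690-32387989, minus strand): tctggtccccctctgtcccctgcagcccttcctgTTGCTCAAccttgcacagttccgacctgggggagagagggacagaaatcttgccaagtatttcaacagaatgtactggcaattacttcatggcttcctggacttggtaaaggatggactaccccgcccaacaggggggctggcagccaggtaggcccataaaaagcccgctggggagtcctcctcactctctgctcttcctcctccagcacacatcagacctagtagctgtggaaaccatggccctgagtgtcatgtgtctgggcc
Serpina3n (chr12:104406458-104406757, plus strand): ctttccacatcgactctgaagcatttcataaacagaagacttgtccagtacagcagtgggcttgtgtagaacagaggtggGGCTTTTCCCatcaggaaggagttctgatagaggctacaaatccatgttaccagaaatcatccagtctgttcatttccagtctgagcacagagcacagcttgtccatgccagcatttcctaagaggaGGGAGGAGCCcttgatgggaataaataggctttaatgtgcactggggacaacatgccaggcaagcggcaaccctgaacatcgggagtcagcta
S100a8 (chr3:90668821-90669120, plus strand): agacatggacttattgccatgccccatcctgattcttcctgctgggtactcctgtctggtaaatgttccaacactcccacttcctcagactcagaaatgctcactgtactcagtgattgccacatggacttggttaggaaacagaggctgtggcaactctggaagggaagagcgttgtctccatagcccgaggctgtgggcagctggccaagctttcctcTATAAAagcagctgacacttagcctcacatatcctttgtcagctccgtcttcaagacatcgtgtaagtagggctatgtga
S100a9 (chr3:90695672-90695971, minus strand): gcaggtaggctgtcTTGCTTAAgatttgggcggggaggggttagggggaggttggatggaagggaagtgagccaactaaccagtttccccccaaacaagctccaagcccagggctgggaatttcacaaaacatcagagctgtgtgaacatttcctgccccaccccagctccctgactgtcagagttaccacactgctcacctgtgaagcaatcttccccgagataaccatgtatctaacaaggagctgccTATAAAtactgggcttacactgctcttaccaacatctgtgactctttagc
Lrg1 (chr17:56121897-56122196, minus strand): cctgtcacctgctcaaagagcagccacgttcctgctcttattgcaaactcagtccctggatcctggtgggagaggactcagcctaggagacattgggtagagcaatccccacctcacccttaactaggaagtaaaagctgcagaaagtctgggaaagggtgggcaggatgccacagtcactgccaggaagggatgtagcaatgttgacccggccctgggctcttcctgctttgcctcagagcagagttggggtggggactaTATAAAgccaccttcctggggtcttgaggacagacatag
The C/EBP letters occurred once in the Lcn2 window, 216 bases before the start, and once in the S100a9 window, 236 bases before it. They occurred in 10.8% of all 32851 windows. The NF-kB letters occurred at 2 places in the Serpina3n window and in 20.7% of all windows. TATAAA lay 30 bases before the start in the S100a8 window, at the start in the S100a9 window and 11 bases after it in the Lrg1 window, against 8.32% of windows with a match anywhere. The STAT letters were found in 0 of these 5 windows and in 8.30% of all windows. No matches overlapped each other. Of 2 windows of Il1r1, 1 held the C/EBP letters. A match is a description of the letters and not a binding site.

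Of the 7 genes, 5 were upregulated in the C26 group at an adjusted p under 0.05 (limma on log2 values, Benjamini-Hochberg adjustment over all 13363 genes), where 19.4% of all genes were called higher. C26 and control values did not overlap for the same 5 genes, in FPKM and on the scaled log2 values alike. On the scaled values, 27.0% of all genes lay wholly higher in C26 muscles. Il1r1 did not pass the test. Hp was lower in the mean and did not pass it either, so that 0 of 7 genes were called lower by limma, against 14.5% of all genes, and 1 of 7 had an unadjusted p under 0.05, against 22.0% of all genes. With FPKM used as deposited, the calls over all genes changed from 2589 higher and 1932 lower to 1678 higher and 2504 lower, and the same 5 genes of the 7 were called higher. The median log2 fold change of the 7 genes was 1.86, and that of all listed genes was -0.05. The 7 genes were chosen with earlier results of these data known, so these comparisons are descriptive. The shares over all genes are also the background for the counts of the lists below.

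**Figure D1:**
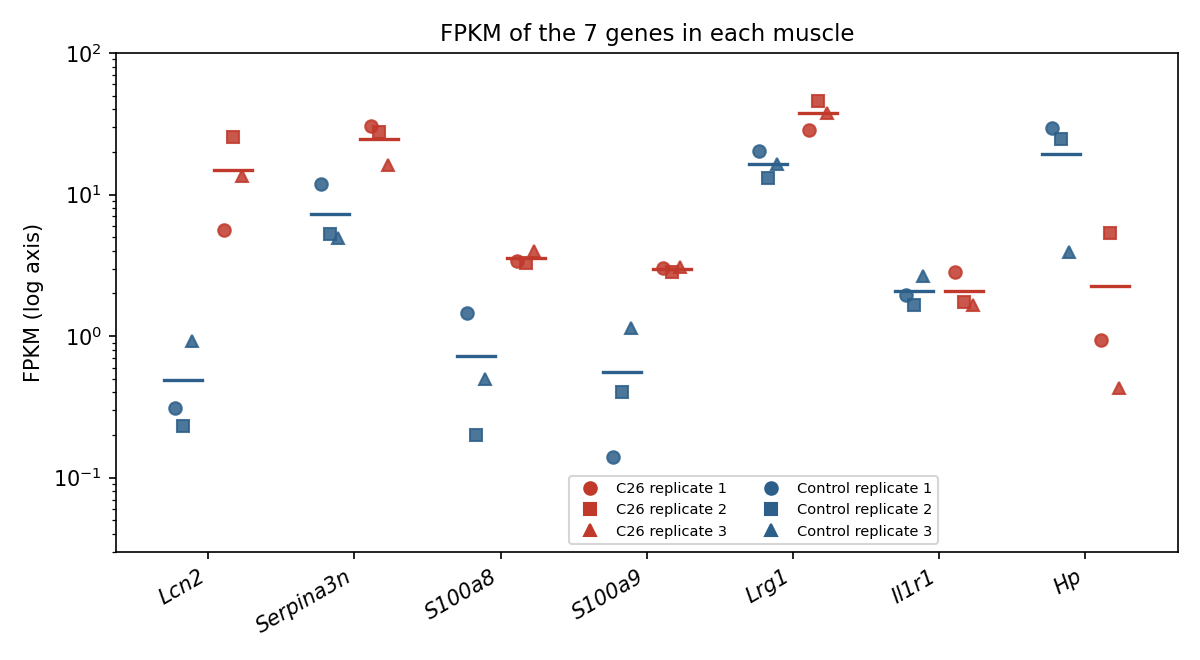
FPKM of the 7 genes on a log axis in each muscle, with a horizontal line at the mean of the 3 muscles of a group. Red C26 points lie wholly above blue control points for Lcn2, Serpina3n, S100a8, S100a9 and Lrg1, while the groups overlap for Il1r1 and Hp.

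Lcn2 encodes lipocalin 2, a secreted protein that withholds iron from bacteria by binding their siderophores. It was listed at 5.59, 25.7 and 13.4 FPKM in the C26 muscles and at 0.31, 0.23 and 0.93 FPKM in the controls. Every C26 muscle was thus above every control, and the C26 muscles differed widely among themselves. The means were 14.9 ± 10.1 and 0.490 ± 0.383 FPKM (SD, n = 3), a ratio of 30.4. The fitted change was 3.80 on the log2 scale (SE 0.52, adjusted p = 0.0052, limma), the 28th highest of all listed genes. It moved from the 11.7 percentile of listed genes by mean FPKM in control muscles to the 74.0 percentile in C26 muscles. A pseudocount of 0.1 in place of 1 raised its log2 fold change to 4.93.

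Serpina3n encodes a secreted inhibitor of serine proteases related to human alpha-1-antichymotrypsin. C26 muscles had 30.3, 27.8 and 16.3 FPKM and control muscles 11.8, 5.29 and 4.92 FPKM. The lowest C26 value was above the highest control value, and C26 replicate 3 lay nearest to the controls. The fitted change was 1.94 on the log2 scale (SE 0.36, adjusted p = 0.0108, limma). Serpina3n lies on chromosome 12 from 104406646 to 104414334 (GRCm38.p6), in a cluster of close paralogs between which reads of 50 bases could be split. Of the 4 other Serpina3 genes listed, Serpina3m was higher, at 0.497 ± 0.212 against 0.113 ± 0.0404 FPKM (SD, n = 3, log2 fold change 0.66, adjusted p = 0.0297, limma). It was no longer called in 4 of 6 leave-one-out fits, nor with FPKM as deposited. Serpina3c, Serpina3g and Serpina3i, named after their values were seen, had log2 fold changes of -0.97, -1.34 and 0.13 and did not pass the test.

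Lrg1 encodes leucine-rich alpha-2-glycoprotein, a secreted protein made by liver, neutrophils and endothelium that modifies TGF-beta signaling in vessels. Its FPKM were 28.4, 46.0 and 37.9 in C26 muscles and 20.2, 13.04 and 16.3 in controls. Its mean was the highest of the 7 genes in C26 muscles, although Serpina3n was above it in C26 replicate 1, and its log2 fold change was the smallest of the 5 upregulated genes. The fitted change was 1.36 on the log2 scale (SE 0.22, adjusted p = 0.00773, limma). Of 8 endothelial markers 0 were called higher by limma, also at an unadjusted p under 0.05, while 2, Kdr and Emcn, fell by 0.83 and 0.50 log2 units. Eng, a TGF-beta co-receptor of endothelium to which the LRG1 protein binds, was also lower, by -0.62 log2 units (adjusted p = 0.0401, limma). Emcn and Eng were each no longer called in 5 of 6 leave-one-out fits, and Kdr in 4. With all muscles kept, Emcn was not called in 5, Eng in 3 and Kdr in 1 of 7 alternatives. The count of lower endothelial markers was 0 to 1 without any one of the other muscles and 4 without control replicate 3.

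S100a8 and S100a9 encode the subunits of calprotectin and lie near each other on chromosome 3, S100a8 from 90669071 to 90670034 and S100a9 from 90692630 to 90695721 (GRCm38.p6). S100a8 was listed at 3.40, 3.28 and 3.96 FPKM in C26 muscles and at 1.46, 0.20 and 0.50 FPKM in controls. S100a9 was listed at 3.04, 2.85 and 3.07 FPKM in C26 muscles and at 0.14, 0.40 and 1.14 FPKM in controls. Neither gene's groups overlapped, and the C26 muscles lay closer together than the controls. The log2 fold changes were 1.92 for S100a8 (SE 0.33, adjusted p = 0.00859, limma) and 1.86 for S100a9 (SE 0.29, adjusted p = 0.00691, limma). With a pseudocount of 0.1 they became 2.78 and 2.86. The ratio of S100a8 to S100a9 was 1.12 to 1.29 in the C26 group and varied from 0.439 to 10.4 among controls. Both transcripts are short, with 486 and 519 bases, and the number of reads behind their values is unknown. Among the 98 listed genes with transcripts within 25% of the length of S100a8, 12.2%, 6.1% and 6.1% lay below it in the 3 controls, and 24.5% to 29.6% did so in C26 muscles.

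Markers of neutrophils were therefore set beside this pair. Of 22 neutrophil markers other than the 7 genes, 8 were listed and 14 were not analysed here, among them the granule genes Mpo, Elane, Ltf and Camp. Of the 8, only Il1r2 was higher in C26 muscles, and 0 were called lower by limma, also at an unadjusted p under 0.05. Csf3r, the receptor for the growth factor of neutrophils, had 0.30, 0.35 and 0.20 FPKM in C26 muscles and 0.20, 0.19 and 0.41 FPKM in controls. Cxcr2, their main chemokine receptor, had 0.10, 0.20 and 0.02 FPKM against 0.12, 0.06 and 0.84 FPKM. Both receptors stayed below 1 FPKM in all 6 muscles, with overlapping groups. The granule proteases Mmp8 and Mmp9 lay between 0.06 and 0.38 FPKM in every muscle. Itgam and Itgb2, which form an adhesion receptor of myeloid cells, overlapped between the groups, and Itgb2 reached 11.6 FPKM in control replicate 3 against 0.36 to 0.96 FPKM elsewhere. Lyz2, the lysozyme of neutrophils and macrophages, was likewise highest in control replicate 3 at 188 FPKM, against 23.1 to 44.1 FPKM elsewhere. Control replicate 3 also had the most Csf3r, Cxcr2 and S100a9 of the 3 controls, while its S100a8 lay between those of the other controls. The summed level of the 8 markers, of which Lyz2 made the largest part, was 25.3 to 47.6 FPKM in C26 muscles and 30.5 to 202 FPKM in controls. Of 10 macrophage markers, 0 were called higher and 0 lower by limma, against 2 and 1 at an unadjusted p under 0.05, with summed levels of 61.5 to 327 FPKM in C26 muscles and 67.2 to 260 FPKM in controls. Cd68 in C26 replicate 2, at 247 FPKM and named after its values were seen, made most of the highest C26 sum, and Lyz2 in control replicate 3 most of the highest control sum. Without C26 replicate 3, 2 macrophage markers were called higher.

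Red blood cell genes were also higher in the C26 group. Of 9 erythroid markers 6 were listed, and all 6 were higher in C26 muscles, with summed levels of 1000 to 1964 FPKM against 499 to 781 FPKM in controls. Among the controls the sums were 781, 589 and 499 FPKM in replicates 1, 2 and 3. S100a9 had the opposite order there, and S100a8 neither order. Hbb-b1, a beta globin, rose by 1.56 log2 units (adjusted p = 0.0156, limma), and Alas2, the enzyme that starts heme synthesis in red cells, by 1.67 (adjusted p = 0.0133, limma). Of the 6, 3 were called higher under quantile normalization, and 1 to 6 when a muscle was left out. The part of blood in the S100a8 and S100a9 values was not tested.

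**Figure D2:**
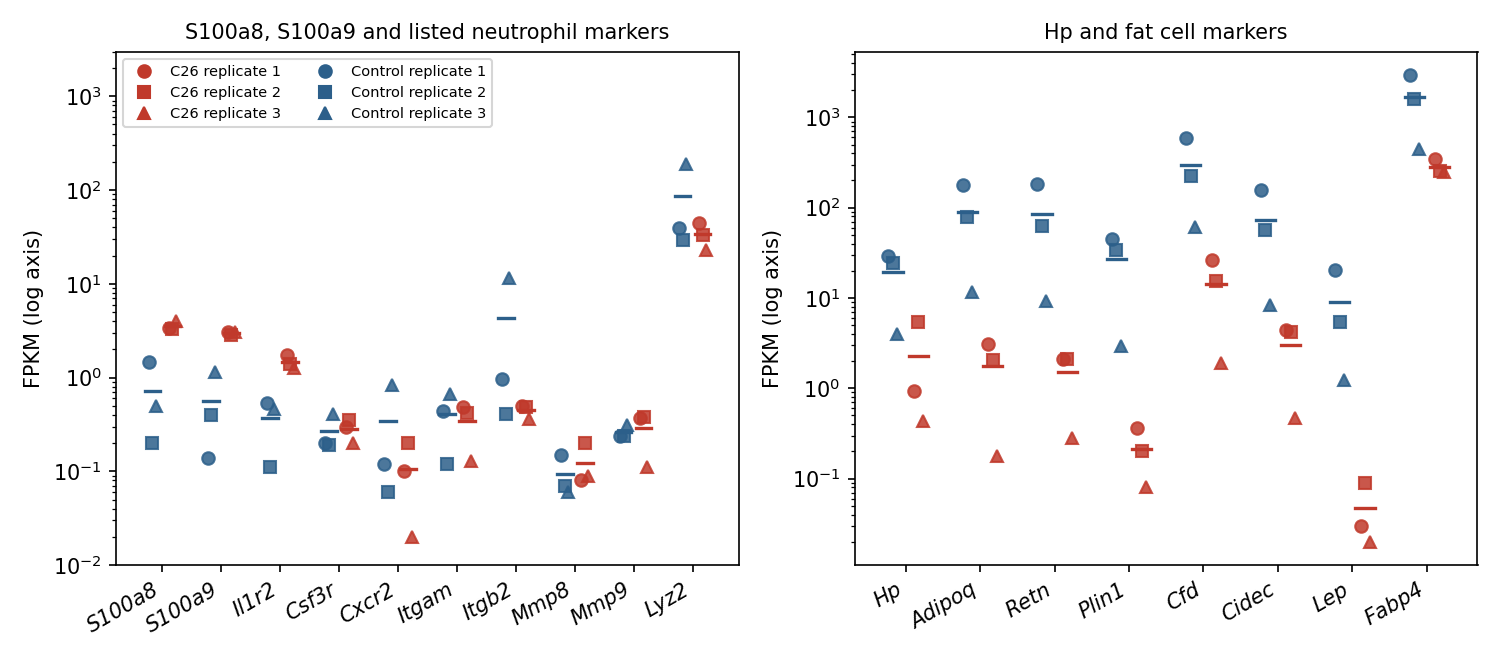
FPKM on log axes in each muscle, with lines at group means, for S100a8, S100a9 and the 8 listed neutrophil markers (left) and for Hp with 7 fat cell markers (right). S100a8, S100a9 and Il1r2 separate the groups while the other neutrophil markers overlap, and Hp is lowest of the controls in replicate 3, as are the fat cell markers.

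The other genes of the S100 family were not called higher. Of 16 further genes 11 were listed, 10 of them S100 genes and the other S100pbp, which encodes a binding partner. None was higher and 5 were lower in C26 muscles by limma, against 0 and 7 at an unadjusted p under 0.05, with a median log2 fold change of -0.69 against -0.05 over all listed genes. S100a11 fell from 102 ± 46.2 to 22.8 ± 3.35 FPKM (SD, n = 3), or by 1.83 log2 units (adjusted p = 0.00844, limma). S100a10, the partner of annexin A2, fell by 1.10 log2 units and S100b, a gene of Schwann cells, by 1.12. Neither was called without control replicate 1, nor was S100b under quantile normalization. The count of lower genes was between 4 and 6 over the alternatives with all muscles and between 1 and 6 with a muscle left out. Of 10 fibroblast markers 6 were lower as well and 0 higher by limma, against 8 and 0 at an unadjusted p under 0.05, with a median log2 fold change of -1.09 and summed levels of 299.7 to 466 FPKM in C26 muscles against 728 to 1056 FPKM in controls. The count of lower fibroblast markers was 3 without C26 replicate 1 or 2 and without control replicate 1 or 2. The part of these cells in the result was not tested.

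**Figure D3:**
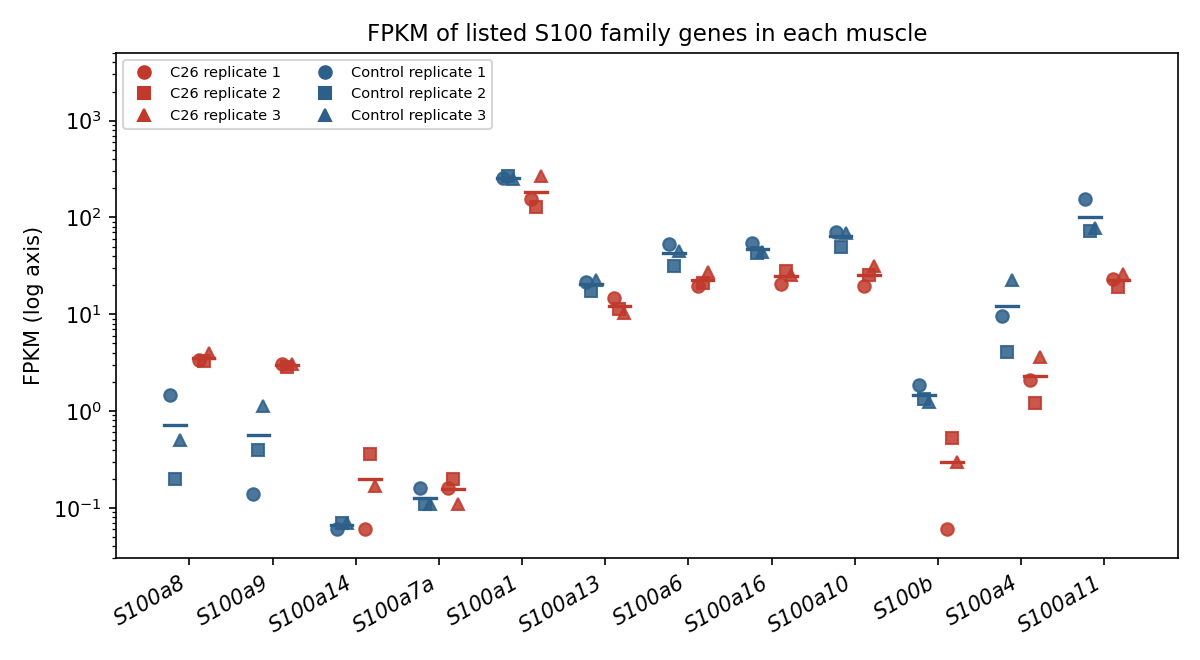
FPKM of S100a8, S100a9 and 10 further S100 genes on a log axis in each muscle, with lines at group means. C26 muscles lie above the controls for S100a8 and S100a9 and wholly below them for S100a10, S100a11 and S100b, among others.

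Il1r1 encodes the signaling receptor for IL-1. Its FPKM were 2.86, 1.75 and 1.66 in C26 muscles and 1.94, 1.67 and 2.65 in controls, so that the groups overlapped throughout. The log2 fold change was 0.16, with a 95% interval from -0.34 to 0.66 (adjusted p = 0.572, limma), and it turned to -0.01 with FPKM used as deposited. Il1r2, the decoy receptor that binds IL-1 without signaling, was listed at 1.75, 1.40 and 1.25 FPKM in C26 muscles and at 0.53, 0.11 and 0.46 FPKM in controls. Its groups did not overlap, and its log2 fold change was 1.24 (SE 0.20, adjusted p = 0.00762, limma). Set against the mean of 2.09 FPKM of Il1r1 in both groups, the mean level of Il1r2 was 1.47 FPKM in C26 muscles and 0.367 FPKM in controls. Of 40 other genes of IL-1 signaling 36 were listed, Il1r2 included, of which 4 were higher and 1 was lower, with a median log2 fold change of 0.02. Over all genes, 19.4% were called higher and 14.5% lower. When a muscle was left out, 3 to 7 of the 36 were higher and 1 to 2 lower, with 6 and 2 without control replicate 3. The 36 genes summed to 207, 196 and 327 FPKM in control replicates 1, 2 and 3 and to 261 to 395 FPKM in C26 muscles. Both Tollip, an adaptor that restrains the IL-1 receptor, and Nfkbib, an inhibitor of NF-kB, rose, by log2 fold changes of 1.91 and 1.88 (adjusted p = 0.00635 and 0.00736, limma). Tnfaip3, which encodes another inhibitor of NF-kB, fell by 1.52 (adjusted p = 0.0144, limma). The genes of the ligands Il1a and Il1b were not analysed here.

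Hp encodes haptoglobin, which captures free hemoglobin in plasma and is made by liver and by fat cells. It was listed at 0.94, 5.39 and 0.43 FPKM in C26 muscles and at 29.4, 24.6 and 3.95 FPKM in controls. The groups overlapped, because control replicate 3 was below C26 replicate 2. The means were 2.25 ± 2.73 and 19.3 ± 13.5 FPKM (SD, n = 3), and the fitted change was -2.68 on the log2 scale (SE 0.93, 95% interval from -4.91 to -0.44, adjusted p = 0.0659, limma). With the replicate number as a block in the fit, the same change had an adjusted p of 0.0316 (limma). Without control replicate 3 it was -3.58, with an adjusted p of 0.0207 (limma). That library also had the lowest levels of fat cell markers among the controls. The 10 fat cell markers, all listed, summed to 4340, 2168 and 555 FPKM in control replicates 1, 2 and 3 and to 261 to 400 FPKM in C26 muscles. Of these 10, 7 were lower in C26 muscles and 0 higher by limma, against 9 and 0 at an unadjusted p under 0.05. The count of lower fat cell markers was 10 without control replicate 3, 3 without C26 replicate 3, 1 without control replicate 1 and 0 without any one of the other 3 muscles. Adipoq, the adiponectin gene, had 176, 79.3 and 11.5 FPKM in the controls, in the same order as Hp. In the C26 muscles the orders differed, since Adipoq was highest in replicate 1, at 3.11 FPKM, and Hp in replicate 2. The part of fat tissue in the Hp values was not tested. The haptoglobin receptor Cd163, named after its values were seen, did not pass the test, while Hmox1, the enzyme that breaks down heme, rose by 1.03 log2 units (adjusted p = 0.0065, limma).

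Hp was the highest of the 7 genes in control muscles by mean FPKM and the next to lowest in C26 muscles. In the controls Hp and Lrg1 overlapped, Lrg1 was above Serpina3n, Serpina3n above Il1r1 and Il1r1 above S100a8 in every muscle, and S100a8, S100a9 and Lcn2 overlapped with their neighbors. In the C26 muscles Lrg1, Serpina3n and Lcn2 overlapped with their neighbors, all 3 lay above S100a8, and S100a8 lay above S100a9. Below them S100a9 overlapped with Hp, and Hp with Il1r1. Lcn2, last among the controls, was the third in the C26 muscles.

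Most other acute phase proteins did not pass the test. Of 43 such genes 18 were listed, of which 3 were higher, 2 lower and 13 not called, where 19.4% of all genes were called higher and 14.5% lower. Their median log2 fold change was 0.08, and that of all listed genes -0.05. At an unadjusted p under 0.05, 6 were higher and 3 lower. Between 1 and 5 were called higher and 0 to 2 lower when a muscle was left out, with 5 higher without control replicate 3. With a pseudocount of 0.1, 5 were called higher and 2 lower, and under quantile normalization 5 and 0. Saa1, serum amyloid A1, was listed at 3.30, 7.87 and 1.11 FPKM in C26 muscles and at 0.11 to 0.23 FPKM in controls, without overlap. Its log2 fold change was 2.44 (SE 0.52, adjusted p = 0.0156, limma), and it was no longer called in 2 of 6 leave-one-out fits. Like Lcn2, Lrg1 and Hp, it was highest in C26 replicate 2. Lbp, the carrier of bacterial lipopolysaccharide, rose from 3.25 ± 0.884 to 8.55 ± 1.29 FPKM (SD, n = 3), or by 1.46 log2 units (adjusted p = 0.00548, limma). Cfb, complement factor B, and Serpina1b, an alpha-1-antitrypsin gene with near-identical copies, fell by 1.96 and 2.39 log2 units, and were each no longer called in 5 of 6 leave-one-out fits. Of 8 hepatocyte markers, 0 were listed, so their levels were not assessed here.

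**Figure D4:**
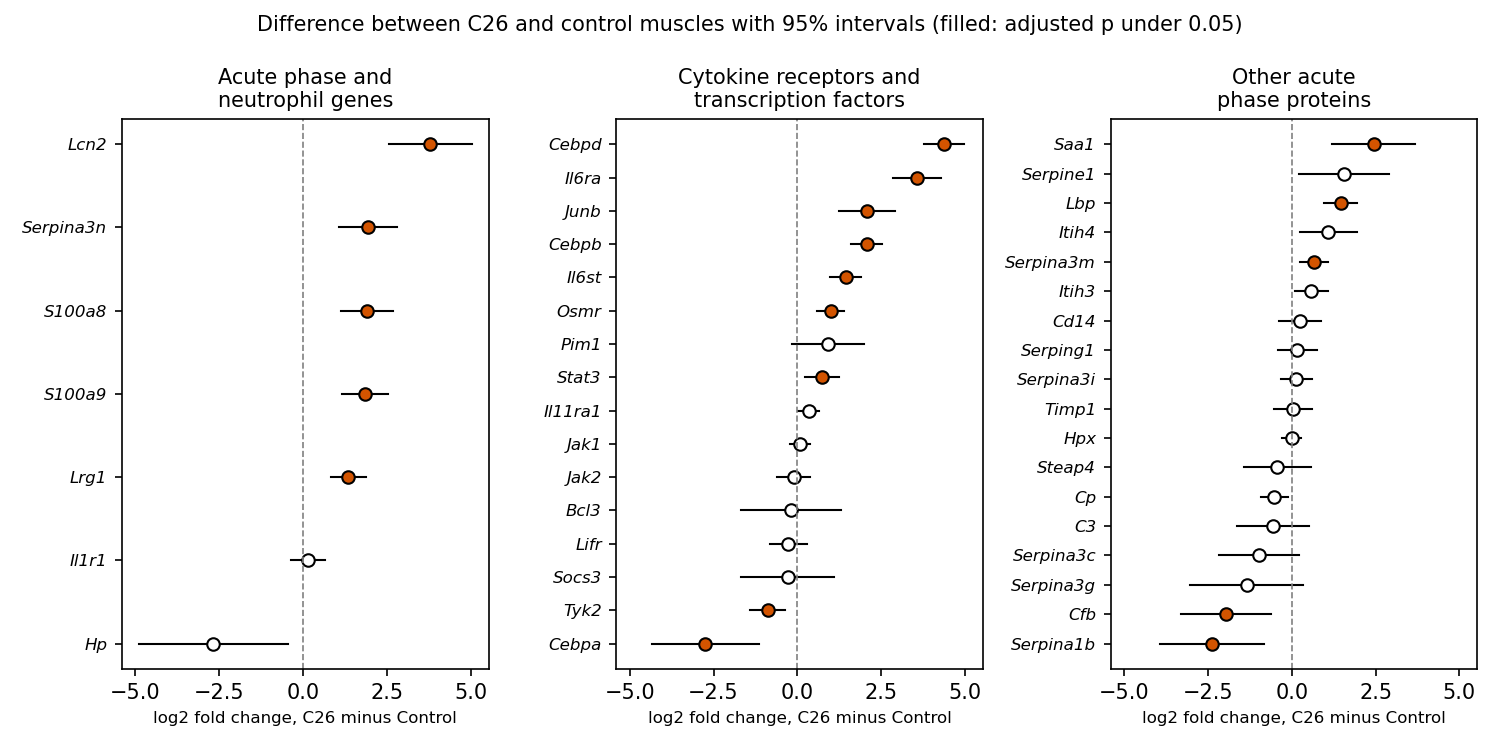
Log2 fold change of C26 against control muscles with 95% intervals for the 7 genes (left), for receptors and transcription factors that induce acute phase genes (middle) and for other acute phase proteins (right), with filled points for an adjusted p under 0.05. Lcn2, at 3.80, and Cebpd, at 4.38, lead the left and middle panels, while the right panel has 3 filled points above 0 and 2 below.

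Genes that induce the acute phase response were examined next. Of 19 genes 16 were listed, of which 7 were higher and 2 lower, where 19.4% of all genes were called higher and 14.5% lower. Their median log2 fold change was 0.53, and that of all listed genes -0.05. Over the alternatives with all muscles 6 to 7 were higher and 1 to 2 lower, and when a muscle was left out 6 to 9 were higher and 0 to 2 lower. Cebpd, an inducible C/EBP transcription factor, had 230, 184 and 171 FPKM in C26 muscles and 10.7, 6.56 and 14.8 FPKM in controls, far apart. Cebpd thus rose by 4.38 log2 units (SE 0.25, adjusted p = 0.000822, limma). Il6ra, the IL-6 receptor, rose by 3.58 and Junb, an AP-1 factor, by 2.07 log2 units (adjusted p = 0.00178 and 0.00848, limma). Chosen after their values were seen, Cebpb rose by 2.06, the shared receptor subunit Il6st by 1.44, the oncostatin M receptor Osmr by 0.99 and Stat3 by 0.74 (adjusted p = 0.00227, 0.0052, 0.00833 and 0.0383, limma). Cebpa, the C/EBP factor of liver and fat cells, fell by 2.74 (adjusted p = 0.0231, limma) and followed the fat cell markers in the controls, with 40.8, 26.5 and 6.53 FPKM. Tyk2, a kinase of cytokine receptors, was lower by a log2 fold change of -0.89. Cebpa was no longer called in 5 and Tyk2 in 3 of 6 leave-one-out fits.

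Among receptors and partners of the encoded proteins, 18 of 21 genes were listed, of which 4 were higher, 2 lower and 12 not called. The shares over all genes were 19.4% higher and 14.5% lower. With FPKM as deposited 2 of the partners were higher. Leaving out a muscle gave 2 to 6 higher and 1 to 4 lower, with 2 higher without any one of C26 replicates 1 and 2 and control replicates 1 and 2, and 4 lower without control replicate 3. Slc22a17, a reported receptor for lipocalin 2, was listed at 0.44, 0.62 and 0.63 FPKM in C26 muscles and at 2.88, 1.87 and 1.71 FPKM in controls. Its log2 fold change was -1.09 (SE 0.20, adjusted p = 0.00994, limma), and it was not called under quantile normalization, at an adjusted p of 0.0597 (limma). Smad5, which carries signals of the TGF-beta family, and Tgfbr2, a TGF-beta receptor, rose by 1.13 and 0.86 on the log2 scale, and Tgfbr2 was no longer called in 4 of 6 leave-one-out fits. Tlr4, the receptor for lipopolysaccharide and calprotectin, had 0.65 to 1.27 FPKM in C26 muscles and 0.44 to 0.65 FPKM in controls and did not pass the test. Tlr4 was named after its values were seen.

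The profiles over the 6 muscles were compared by Pearson correlation of log2 values, which for any gene that separates the groups is set largely by that separation. Of the 7 genes, Lcn2 and Lrg1 were most alike, with r = 0.969. Beyond the 7, Yrdc, Ap2m1 and the metallothionein gene Mt2 came nearest to Lcn2 (r = 0.991, 0.990 and 0.989), and Vegfd, Mt2 and Tsacc nearest to Lrg1 (0.989, 0.985 and 0.980). Mt2 had 120, 891 and 319 FPKM in C26 muscles and 8.66 to 12.1 FPKM in controls, and thus shared with Lcn2 the order of the C26 muscles. Nearest to S100a8 were Osmr, Id1 and Ctla2b (0.989, 0.988 and 0.988), and nearest to S100a9 were Gramd3, Ddit4 and Mphosph8 (0.997, 0.994 and 0.994). Dmxl2, Nhlrc2 and Gadd45b were nearest to Serpina3n (0.997, 0.995 and 0.993), Dnajc17, Yy2 and Ptgs2 to Il1r1 (0.973, 0.959 and 0.957) and Ndufaf8, Ro60 and Slc39a1 to Hp (0.996, 0.987 and 0.986). Ptgs2 was listed at only 0.03 to 0.13 FPKM, in values of 2 decimals. All these genes were picked from 13363 over 6 muscles, and the r that such a search gives by itself was not tested.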

How the data were processed

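RNA of 6 gastrocnemius muscles was sequenced as single-end reads on the BGISEQ-500. The authors removed adaptor, low-quality and rRNA reads, aligned the rest to GRCm38.p5 with bowtie2 and estimated FPKM by RSEM, and deposited 1 FPKM value per gene and sample, to 2 decimals. The submitters' processing notes also list HISAT2 2.0.4, Bowtie2 2.2.5, RSEM 1.2.12 and mm9, and the extraction text in the labels names, beside the muscles, infected cells of the human line THP-1. The table has no coordinates. Every listed gene has a value above 0 in all 6 samples. Read counts were not analysed here, and the low values did not form clear steps of whole reads, so the depth is unknown and precision was judged by the spread of the 3 muscles per group.

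Entrez IDs were matched to RefSeq symbols for 13327 of 13363 genes. FPKM, which summed to between 531061 and 688300 per sample, were brought to a total of 1000000 (TPM), divided by TMM factors (0.903 to 1.08, unweighted, trimming 30% by log ratio and 5% by mean level) and log2-transformed after adding 1, so fold changes of low genes are understated. Groups were compared with limma 3.58.1 in R 4.3.3 (two-sided, empirical Bayes, Benjamini-Hochberg adjustment over all listed genes, threshold 0.05). The fit was tested on simulated data. Figures were drawn with Python 3.11.15 and matplotlib 3.10.9.

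The 7 genes, the lists and the tests were chosen with earlier results of these data known. Named beside the 7 were up to 3 genes called higher and 3 called lower of each list, all listed neutrophil markers and the 3 genes most correlated with each of the 7. Alternatives were quantile normalization, the deposited FPKM unscaled, TPM left without TMM, a pseudocount of 0.1, only genes with a mean TPM of 1 or more, an intensity trend, a replicate block and leaving out each muscle.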

Additional observations from a re-analysis of the deposited data

How the results depend on the processing

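Lcn2, Serpina3n, S100a8, S100a9 and Lrg1 kept their direction and an adjusted p under 0.05 (limma) in all 7 alternatives with all muscles and in all 6 fits that left out a muscle. With a muscle left out, their log2 fold changes lay between 3.32 and 4.35, 1.69 and 2.29, 1.65 and 2.27, 1.59 and 2.15, and 1.23 and 1.55, and the largest adjusted p was 0.0484, for Serpina3n. Il1r1 did not pass the test in any fit, and its log2 fold change was -0.007 with FPKM as deposited and lay between -0.033 and 0.31 with a muscle left out. For Hp it lay between -3.58 and -2.10 with a muscle left out, with adjusted p between 0.0207 and 0.186, and between 0 and 1 of the 7 genes was then called lower. Over all genes, FPKM as deposited gave 1678 higher calls, and leaving out a muscle gave 1127 to 3311 higher and 669 to 2160 lower calls. Over the other lists together, 14 to 34 genes were higher and 10 to 42 lower with a muscle left out, against 25 and 32. The cause of these shifts was not tested.

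Samples with the same replicate number did not deviate together (correlations of -0.039, -0.084 and -0.112). With the replicate number as a block, Hp kept its log2 fold change of -2.68 at an adjusted p of 0.0316 (limma), so that 1 of the 7 genes was called lower, and 1235 genes in all were called lower. The block changed no other call among the 7 genes. Among the other named genes it ended the calls of Serpina3m, Tgfbr2, Eng, Hbb-b2 and Emcn. It lowered the count of lower fibroblast markers from 6 to 3, of higher erythroid markers from 6 to 3, of higher receptors and partners from 4 to 2, and of lower partners and lower endothelial markers from 2 to 1 each. Itgam, which did not pass the test, had a log2 fold change of -0.058 with FPKM as deposited and of -0.19 to 0.21 with a muscle left out, including -0.10 and -0.05 without C26 replicates 1 and 2. With a muscle left out, that of Cxcr2 lay between -0.46 and 0.049 and that of Lyz2 between -1.11 and 0.10, above 0 for both only without control replicate 3. Of 579 results for 45 other named genes, 484 kept direction and side of the threshold, 89 lost significance and 6 changed sign.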

Other observations

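Genes of iron handling, the process in which lipocalin 2 and haptoglobin take part, were called in both directions. All 16 genes of the list were listed, of which 1 was higher and 4 were lower in C26 muscles (limma, adjusted p under 0.05), with a median log2 fold change of -0.22, where 19.4% of all genes were called higher and 14.5% lower. Without control replicate 3, 7 were lower, and without C26 replicate 2, 2 were higher. Slc39a14, a carrier of zinc and of iron that is not bound to transferrin, had 20.7, 32.6 and 20.4 FPKM in C26 muscles and 1.82, 1.87 and 1.98 FPKM in controls, or 3.49 as log2 fold change (SE 0.19, adjusted p = 0.000822, limma). Tfrc, the transferrin receptor, had 1.49, 2.58 and 2.08 FPKM in C26 muscles and 25.2, 17.0 and 15.6 FPKM in controls, or -2.71 as log2 fold change (SE 0.24, adjusted p = 0.00197, limma). The groups of both genes were far apart, and the C26 muscle with the most Slc39a14 was also the one with the most Lcn2. Steap3, which reduces iron in endosomes, fell by 1.63 log2 units (adjusted p = 0.00626, limma), and Hjv, the hemojuvelin gene of muscle and liver, fell by 1.66 (adjusted p = 0.0165, limma) and was no longer called in 3 of 6 leave-one-out fits. The ferritin genes Fth1 and Ftl1, named after their values were seen, had log2 fold changes of 0.14 and 0.47 and did not pass the test.

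Of the fibroblast markers, Col3a1, Col1a1 and Col1a2 fell most, by log2 fold changes of -3.63, -2.97 and -2.60. Plin1, Adipoq and Retn led the fat cell markers with -4.34, -4.66 and -4.55, and were each no longer called in 4 of 6 leave-one-out fits. Of 10 muscle fiber markers, 1, Tnnc2, fell by 1.38 log2 units and 0 were higher by limma, against 2 and 0 at an unadjusted p under 0.05. Tnnc2 was no longer called with an intensity trend (adjusted p = 0.0719, limma), without C26 replicate 1 or without control replicate 1, and the count of lower fiber markers was 6 with FPKM as deposited and 0 to 3 with a muscle left out. Under quantile normalization 2 fiber markers were called higher. Mb, Myh1 and Myh2, named after their values were seen, were highest of all muscles in C26 replicate 3. Mb had 4906 FPKM there, against 275 and 74.0 FPKM in C26 replicates 1 and 2 and 578 to 1569 FPKM in controls. Myh1 had 2555 FPKM, against 299, 254 and 92.8 to 331 FPKM, and Myh2 379 FPKM, against 84.5, 75.1 and 77.3 to 214 FPKM. The cause of this difference was not tested. The macrophage gene Cd68 was listed at 247 FPKM in C26 replicate 2 and at 34.9 and 6.46 FPKM in the other C26 muscles, against 1.75 to 5.77 FPKM in controls, and did not pass the test (adjusted p = 0.0653, limma).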
